A study of Mus musculus with 6 samples.

Results

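The mitochondrial ribosomal protein genes were followed in B cells of the germinal centre, where cells that have met antigen divide, mutate their antibody genes and are selected. They were taken as every row whose symbol begins with Mrpl or Mrps followed by a number, which gave 76 of the 23420 genes listed, 47 Mrpl and 29 Mrps. The KO group was BASP1 fl/fl hCD20TamCre+/- and the WT group BASP1 +/+ hCD20TamCre+/-, with 3 libraries each, numbered 1 to 3. All mice had received the immunogen NP-KLH and 1 mg of tamoxifen on days 5, 7 and 9, and the cells were sorted from spleen on day 10. Both groups thus carried the B cell Cre recombinase that tamoxifen switches on, and they differed in the floxed Basp1 alleles. The labels do not say whether libraries came from separate mice or pools, and give no ages. In bulk libraries such as these, fewer cells of a type and less RNA per cell cannot be told apart.

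Mitochondria keep a ribosome of their own, which makes the few membrane subunits of the respiratory chain and of ATP synthase that mitochondrial DNA encodes. Its RNAs are mitochondrial, but its proteins are encoded in the nucleus, made in the cytosol and imported. Of the 76 members, 46 have a counterpart in the bacterial ribosome and 27 are known only from mitochondria. Mrps18a and Mrps18b are relatives of Mrps18c, the bacterial S18 counterpart. Symbols do not always match the subunit: the products of Mrps30 and Mrps18a sit in the large subunit, and that of Mrps36 is a component of the alpha-ketoglutarate dehydrogenase complex. Germinal centre B cells are known to rely on oxidative phosphorylation.

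Promoters of nuclear genes for mitochondrial proteins are known for sites of the ETS family, of NRF1 and of YY1, and MYC binds the E-box. RefSeq start windows (GRCm38.p6) were at hand for 67 of the 76 members, 73 windows in all, and the letters of 4 motifs were searched on both strands. In the 250 bases before the start, the ETS core CCGGAA stood in 27 of 73 member windows (37.0%), in 24.4% of the 9725 windows of the tested genes and in 12% of all 32851 windows. The cytosolic ribosomal protein genes had it in 25 of 67 windows (37.3%), about the same share as the members. The NRF1 core GCGCATGC stood in 8 of 73 (11%), in 0 of the 67 cytosolic windows, in 4.93% of windows of the tested genes and in 2.26% of all windows. The E-box CACGTG stood in 9.59% of member windows, against 10.4% for the cytosolic genes, 8.79% for the tested genes and 6.02% for all windows. The YY1-type letters ATGGCGGC stood in 1 member window (1.37%), against 4.48% for the cytosolic genes and 2.11% for the tested genes. With the 50 bases after the start included, they stood in 12 member windows (16.4%), 7.46% of cytosolic windows, 5.45% of those of the tested genes and 2.24% of all windows. The ETS core then stood in 56.2% of member windows, 49.3% of cytosolic windows, 30.6% of those of the tested genes and 14.9% of all windows, and the NRF1 core in 11% of member windows and 4.48% of cytosolic windows. The 4 motifs do not contain each other, though the NRF1 core can overlap its own reverse complement. A match of letters does not tell whether a factor binds there.

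The following 250-base windows end at the base before the RefSeq start and are written 5′ to 3′ along the gene. They are shown because they are, in order of p in the comparison below, the first members with 1 window that hold the ETS core (Mrpl52 and Mrpl50), the NRF1 core (Mrpl32 and Mrpl22) and the E-box (Mrpl20). Capitals mark motif letters on either strand.
Mrpl52, chr14:54426659-54426908, plus strand: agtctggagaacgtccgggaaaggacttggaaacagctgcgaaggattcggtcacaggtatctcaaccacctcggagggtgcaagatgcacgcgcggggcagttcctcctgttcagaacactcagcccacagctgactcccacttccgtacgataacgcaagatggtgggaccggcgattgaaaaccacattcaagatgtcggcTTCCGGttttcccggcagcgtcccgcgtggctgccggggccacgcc
Mrpl50, chr4:49521084-49521333, minus strand: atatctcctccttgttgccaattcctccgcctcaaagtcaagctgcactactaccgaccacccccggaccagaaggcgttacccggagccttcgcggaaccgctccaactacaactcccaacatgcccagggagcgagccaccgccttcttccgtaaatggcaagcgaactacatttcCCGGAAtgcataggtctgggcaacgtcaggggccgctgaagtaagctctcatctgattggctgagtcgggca
Mrpl32, chr13:14613038-14613287, minus strand: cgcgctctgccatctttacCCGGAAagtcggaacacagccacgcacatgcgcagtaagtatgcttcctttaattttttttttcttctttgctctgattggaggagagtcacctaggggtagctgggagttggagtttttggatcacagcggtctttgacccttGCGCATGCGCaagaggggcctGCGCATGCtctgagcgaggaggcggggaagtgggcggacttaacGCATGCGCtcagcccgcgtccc
Mrpl22, chr11:58171414-58171663, plus strand: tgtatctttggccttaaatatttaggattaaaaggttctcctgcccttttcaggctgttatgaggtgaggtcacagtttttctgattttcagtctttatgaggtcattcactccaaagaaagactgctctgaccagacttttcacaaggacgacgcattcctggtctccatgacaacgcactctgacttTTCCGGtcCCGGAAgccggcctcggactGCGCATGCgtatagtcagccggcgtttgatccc
Mrpl20, chr4:155802628-155802877, plus strand: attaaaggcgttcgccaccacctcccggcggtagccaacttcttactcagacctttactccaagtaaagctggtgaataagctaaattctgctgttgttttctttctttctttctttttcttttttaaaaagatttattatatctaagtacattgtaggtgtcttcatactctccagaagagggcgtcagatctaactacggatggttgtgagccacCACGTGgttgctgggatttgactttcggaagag
The window of Mrpl32 held 4 matches of the NRF1 core, 2 of them overlapping, between 87 and 15 bases before the RefSeq start. In the GENCODE M21 annotation that gene begins further out, at base 14613165 on the minus strand, so these 4 matches lie inside it. The window of Mrpl22 held both the ETS and the NRF1 core within 61 bases of the RefSeq start.

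The values were read as log2 CPM, the base-2 logarithm of read counts scaled to library size. They had been processed beyond such scaling, as the highest value was 13.941 in all libraries. Whether that processing set the near-equal medians over all genes was not tested. On the linear scale a library added up to 997617 at the lowest and 1000513 at the highest, and the depth of single libraries is unknown. For each gene, the KO and WT values of 1 replicate number added up to the same sum for all 3 numbers (largest gap 0.001), so that within a pair only the difference between its 2 libraries carries information. Which of them moved cannot be told apart. The KO and WT groups of a gene therefore do not overlap exactly when its 3 pair differences have the same sign. Basp1 was at 3.27, 2.86 and 3.23 log2 CPM in KO and at 5.49, 5.90 and 5.52 in WT, a difference of -2.51 ± 0.45 (SD, n = 3 pairs; limma adjusted p = 3.3e-16, and 0.150 without a variance trend). All 12 germinal centre B cell markers looked at had a mean of at least 1 CPM, and their summed level was 9930 to 10100 CPM in KO and 10300 to 10500 CPM in WT. Of the 12, 2 had a mean difference above 0 and 10 below it (median -0.07), where 51.4% of all genes tested were above 0. For 3 the unadjusted limma p was under 0.05 with KO lower (4.66% of all genes tested), and 0 passed 5% FDR. Of 7 T cell markers 1 reached 1 CPM, Lck at 228 CPM in KO and 194 CPM in WT, while Cd3e lay in all libraries at -5.063, the value that 8492 genes hold throughout. Lck differed by 0.231, with an unadjusted limma p under 0.05 and KO higher (4.16% of all genes tested). Of 8 myeloid markers 1 was tested, at 2.15 CPM. It differed by -0.663, mostly through pair 3 (-1.727), with an unadjusted limma p under 0.05 and KO lower. Neither passed 5% FDR. Summed erythroid and platelet markers were at 1.71 to 2.89 CPM in KO and 1.15 to 2.33 CPM in WT, myeloid markers at 2.10 to 3.40 CPM in KO and 3.36 to 5.36 CPM in WT, and plasma cell markers at 1970 to 2160 CPM in KO and 2100 to 2320 CPM in WT. That last sum rests mostly on 1 abundant gene: of the 4 plasma cell markers tested 3 had a mean difference above 0 (median 0.297), 2 with an unadjusted limma p under 0.05 above WT and 1 below it, and 0 passed 5% FDR. Summed naive B cell markers were at 317 to 403 CPM in KO and 298 to 377 CPM in WT. Their log2 ratios of KO over WT were -0.08, 0.43 and -0.25 in pairs 1 to 3. All 5 had a mean difference above 0 (median 0.055), and 0 had an unadjusted limma p under 0.05. The part of any of these marker groups in the results was not tested.

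Every member was expressed well above 1 CPM in both groups. The mean over all libraries ran from 15.8 CPM for Mrps6 to 311 CPM for Mrpl18, and 52 of the 76 lay above 64 CPM. Per kb of transcript the median was 59.4 CPM in KO and 59.9 CPM in WT, about the same in both groups. The cytosolic ribosomal protein genes, Rpl and Rps, had a median of 702 CPM per kb in KO and 603 in WT, and all genes tested had one of 10.8 in KO and 10.8 in WT. Some cytosolic rows lay far below the family median of 514 CPM over all libraries. These were Rpl26 (0.0399 CPM, not tested), Rps27 (1.71 CPM), Rpl30 (2.33 CPM) and Rpl34 (19.3 CPM). The cause of these low values was not tested. By symbol, Mrpl members had a median of 65.9 CPM per kb in KO and 66.1 in WT, and Mrps members one of 52.1 in KO and 51.8 in WT.

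The members with the highest level per kb had like values in both groups. Mrps21, the counterpart of bacterial S21, was at 318 ± 15.1 CPM per kb in KO and 309 ± 15.1 in WT (SD, n = 3 libraries each). Mrpl33, the counterpart of bacterial L33, was at 315 ± 12.8 in KO and 293 ± 11.8 in WT. Next in rank, Mrpl42, a mitochondria-specific protein, was at 289 ± 12.4 in KO and 284 ± 12.3 in WT. With equal pair sums, these SDs only restate the pair differences of a gene. They mirror each other in KO and WT and are not the spread of 3 independent libraries. Mrps21 and Mrpl33 lay within 1 such SD of each other in KO, and Mrpl33 and Mrpl42 did in WT. Whether these genes differ in rank cannot be told from such SDs. Next came Mrps18c at 262 ± 8.63 in KO and 262 ± 8.59 in WT. Its relative Mrps18a was at 162 CPM per kb in KO and 171 in WT, and Mrps18b at 52.1 in KO and 51.8 in WT, so the 3 S18 genes differed far more from each other than between groups.

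At the low end stood Mrps25 at 6.22 ± 0.342 CPM per kb in KO and 6.07 ± 0.324 in WT, Mrpl47, the counterpart of bacterial L29, at 6.59 ± 0.302 in KO and 6.59 ± 0.304 in WT, and Mrps35 at 7.54 ± 0.293 in KO and 7.84 ± 0.305 in WT. The ranges of Mrps25 and Mrpl47 within 1 SD overlapped in both groups, though these SDs too only restate the pair differences. An exon of Mrps25 overlaps Nr2c2 on the other strand over 3533 bases. These members have long annotated transcripts of 6073, 3364 and 4162 bases. If the cells used shorter forms, the values per kb are too low. Over both groups the range from Mrps25 to Mrps21 was 51.1-fold per kb. Mrpl12, whose product forms the stalk that recruits translation factors and also binds the mitochondrial RNA polymerase, was at 118 CPM per kb in KO and 123 in WT. Mrps30 was at 34.4 CPM per kb in KO and 33.7 in WT, and Mrps36 at 64.2 in KO and 62.3 in WT.

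**Figure D1:**
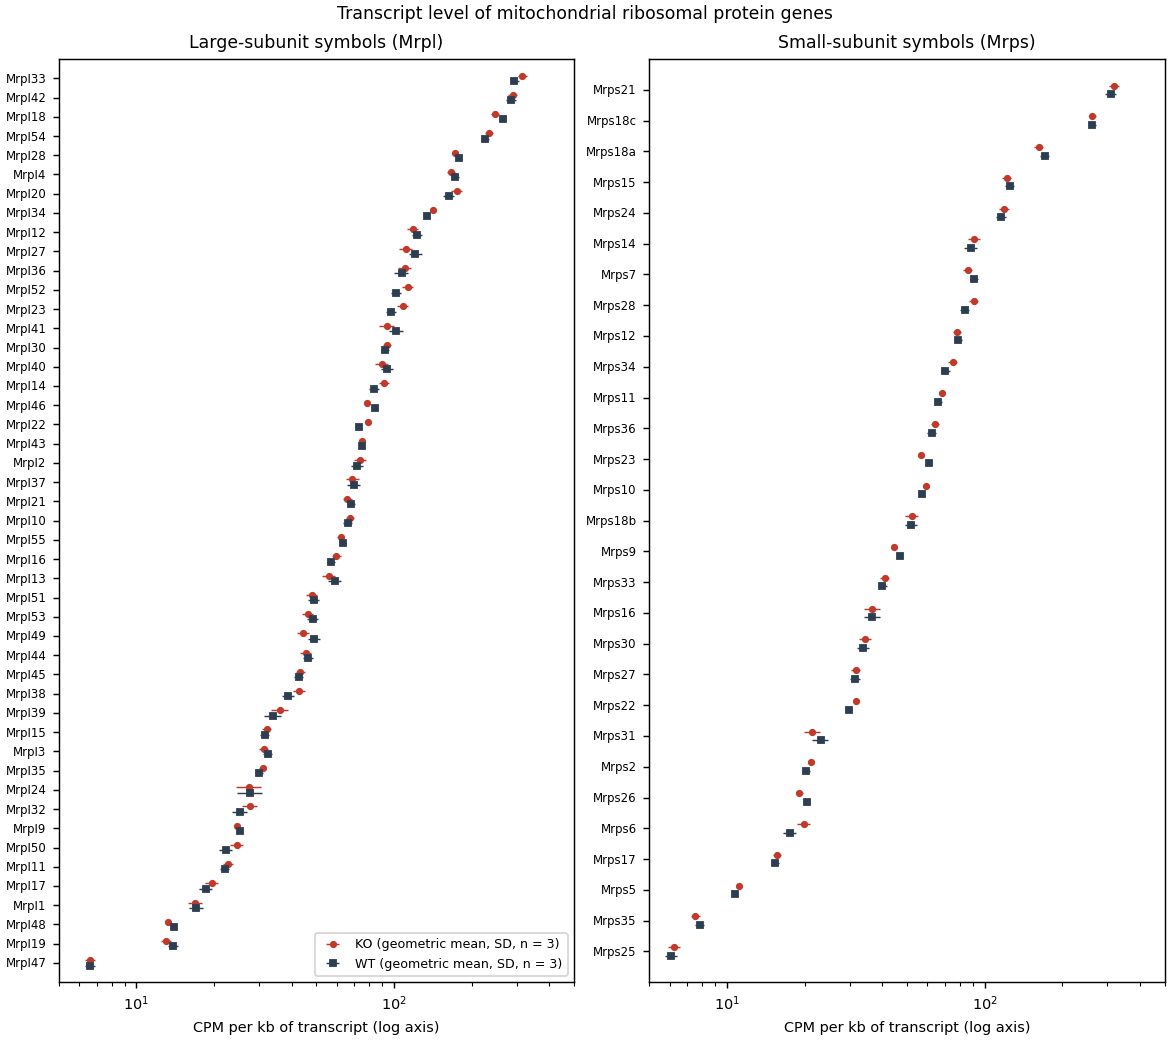
Level of each of the 76 genes in CPM per kb of annotated transcript on a log axis, Mrpl at left and Mrps at right, with KO as red circles and WT as dark squares (geometric mean, bars are the SD of 3 libraries). The KO and WT bars of a gene come from the same 3 pair differences. Genes span from about 6 for Mrps25 to over 300 for Mrps21, while the KO and WT points of a gene lie close together.

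The comparison of KO with WT asked whether transcripts of the mitochondrial ribosome differed in cells of the group with floxed Basp1. Of the 76 members 0 passed 5% FDR in limma, fitted over all 10133 genes with replicate number as a block, and 0 had an unadjusted p under 0.05. Over all genes tested 27 passed 5% FDR (0.266%) and 8.82% had an unadjusted p under 0.05 (4.16% with KO higher and 4.66% with KO lower). Mean differences, KO minus WT, ran from -0.14 to 0.19 on the log2 scale, 43 above 0 and 33 below, with a median of 0.024 beside one of 0.004 over all genes tested, of which 51.4% were above 0. The member median was -0.028 without replicate 1, -0.002 without replicate 2 and 0.079 without replicate 3. The 95% intervals of all 76 differences included 0. Taken over the members, they reached down to -0.31 and up to 0.45 at most, so that larger changes of any 1 member lie outside its interval. Such intervals take most of each gene's spread from other genes of like level, and an exact sign-flip test of 3 pairs could not give a two-sided p below 0.25.

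**Figure D2:**
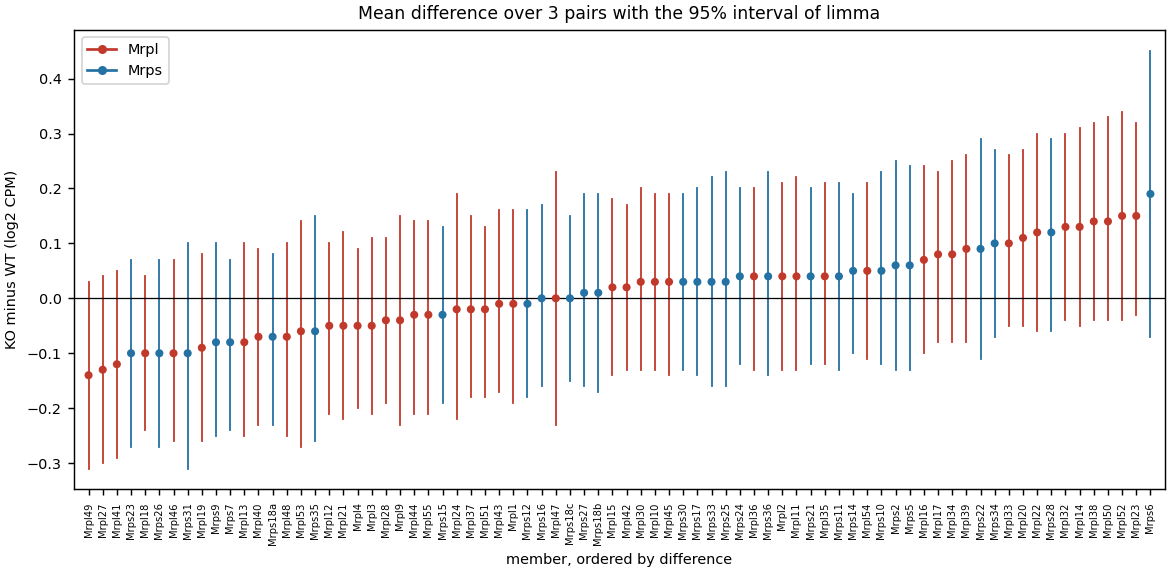
Difference of KO minus WT in log2 CPM for each of the 76 genes, ordered by size, with the mean of 3 pairs as a point and the 95% interval of limma as a line (Mrpl red, Mrps blue). Means lie between -0.14 for Mrpl49 and 0.19 for Mrps6, and each line crosses 0.

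Of the large-subunit proteins, Mrpl23, whose bacterial counterpart lines the mouth of the exit tunnel, had the smallest p. It was at 6.18, 6.30 and 6.20 log2 CPM in KO 1 to 3 and at 6.12, 6.00 and 6.11 in WT 1 to 3. The groups did not overlap, and the difference was 0.15 ± 0.13 over 3 pairs (SD; limma adjusted p = 0.680), and the gene lies on chromosome 7 from 142532686 to 142540747 (GRCm38). Mrpl49, a mitochondria-specific protein, was at 6.38, 6.24 and 6.26 log2 CPM in KO and at 6.35, 6.49 and 6.47 in WT, a difference of -0.14 ± 0.15 (limma adjusted p = 0.685; chromosome 19, 6053622 to 6057785). Here pair 1 went against pairs 2 and 3, and the groups overlapped. Mrpl27, whose bacterial counterpart reaches into the peptidyl transferase centre, was at 6.48, 6.33 and 6.34 log2 CPM in KO and at 6.42, 6.57 and 6.56 in WT (-0.13 ± 0.17). It showed the same split between pair 1 and the others. For Mrpl27 and Mrpl49 an exon overlaps one of Eme1 or Syvn1 on the other strand, and no source used here tells whether counting used strand.

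The mitochondria-specific proteins Mrpl38, Mrpl52 and Mrpl50 had differences of 0.14 ± 0.16, 0.15 ± 0.14 and 0.14 ± 0.16 (SD, n = 3 pairs), carried by pairs 1 and 2. Mrpl52 was at 5.58, 5.61 and 5.48 log2 CPM in KO and at 5.39, 5.36 and 5.49 in WT, so that pair 3 was nearly equal. Mrpl32, whose cleavage by the m-AAA protease is known to be needed for its assembly into the ribosome, was at 6.45, 6.42 and 6.27 log2 CPM in KO and at 6.18, 6.21 and 6.36 in WT. Its difference was 0.13 ± 0.20 with pair 3 of the other sign. Mrpl14, which lies at the interface with the small subunit, differed by 0.13 ± 0.14. Mrpl18, the member with the highest CPM, was at 8.29, 8.20 and 8.20 log2 CPM in KO and at 8.27, 8.36 and 8.35 in WT, a difference of -0.10 ± 0.10. Mrpl41, also mitochondria-specific, differed by -0.12 ± 0.19. None of these members passed 5% FDR.

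Of the small-subunit symbols, Mrps6, the counterpart of bacterial S6 and the lowest member in CPM, had the smallest p. It was at 4.08, 4.15 and 3.99 log2 CPM in KO and at 3.88, 3.81 and 3.97 in WT (0.19 ± 0.17 over 3 pairs, SD; limma adjusted p = 0.760), and lies on chromosome 16 from 92058270 to 92112227. The groups did not overlap, but pair 3 differed by only 0.02. Mrps6 shares exon sequence with Slc5a3 and Gm49711 on the same strand, so its reads may be split between them. Mrps28 was at 6.19, 6.18 and 6.09 log2 CPM in KO and at 6.00, 6.01 and 6.10 in WT (0.12 ± 0.12). Mrps34, a mitochondria-specific protein, was at 6.18, 6.07 and 6.09 log2 CPM in KO and at 5.95, 6.06 and 6.04 in WT (0.10 ± 0.12), with differences of 0.23, 0.01 and 0.06 in pairs 1 to 3. The KO libraries lay below the WT libraries for Mrps23 (-0.10 ± 0.06), Mrps26 (-0.10 ± 0.08) and Mrps7 (-0.08 ± 0.10), the last the counterpart of bacterial S7 in the head of the subunit. For Mrps7 this was barely so, as KO 2 and WT 2 were both at 7.44 log2 CPM after rounding. Mrps31 and Mrps18a differed by -0.10 ± 0.21 and -0.07 ± 0.11, with overlapping groups. None of these passed 5% FDR.

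Groups that did not overlap were no more common among the members than among other genes. With equal pair sums, such groups only restate that the 3 pair differences share a sign. They occurred in 15 of 76 members (19.7%), 9 with KO above WT and 6 below, against 27.7% of all genes tested. The tightest of them was Mrps9, at 5.98, 5.97 and 5.97 log2 CPM in KO and at 6.04, 6.06 and 6.05 in WT, a difference of -0.08 ± 0.01. It was singled out after its values were seen, and its limma adjusted p was 0.882. Mrps22, singled out in the same way, was at 5.24, 5.26 and 5.22 log2 CPM in KO and at 5.15, 5.13 and 5.17 in WT (0.09 ± 0.03; limma adjusted p = 0.877).

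What the members shared was a pattern over the 3 pairs, which some lists below showed in part. In pair 1, 62 of 76 members (81.6%) were above WT in KO, in pair 2 47 (61.8%) and in pair 3 11 (14.5%), where all genes tested had 50.3%, 52.1% and 50.7%. The median differences were 0.107, 0.038 and -0.110 on the log2 scale, beside 0.003, 0.011 and 0.004 over all genes tested. A KO value above WT in pair 1 together with one below WT in pair 3 was found for 50 members (65.8%) and for 27.1% of all genes tested. The most frequent signs were above WT in pairs 1 and 2 and below it in pair 3, in 29 members (38.2%) against 14.9% of all genes tested. The pairs thus pulled in opposite directions, and the mean over them lay near 0.

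**Figure D3:**
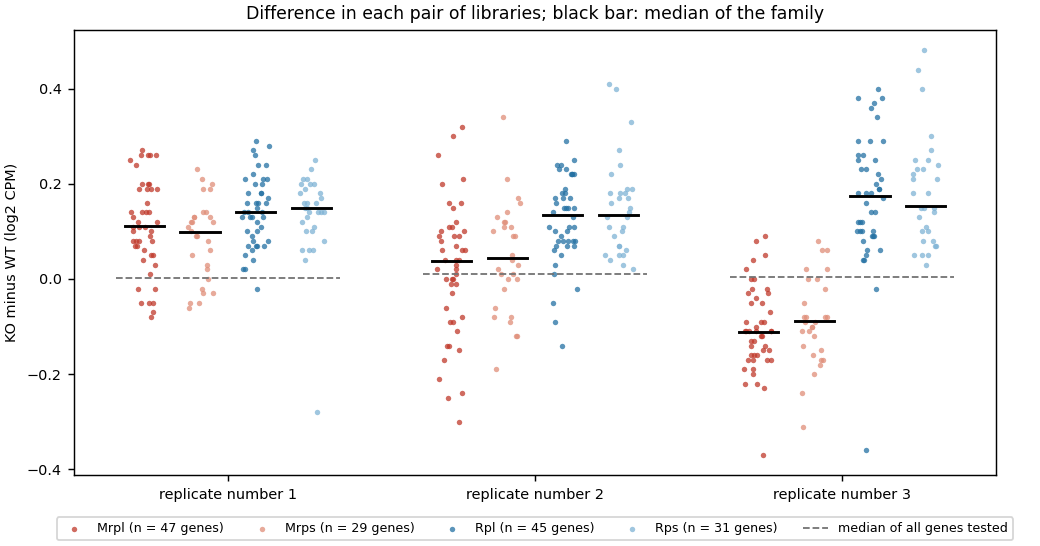
Difference of KO minus WT in log2 CPM in each of the 3 pairs, 1 point per gene, for Mrpl and Mrps (reds) and for the cytosolic Rpl and Rps genes (blues). Black bars are family medians and dashed lines the median of all genes tested. Mrpl and Mrps points sit mostly above 0 in pair 1 and below 0 in pair 3, while 74, 72 and 74 of the 76 Rpl and Rps points sit above 0 in pairs 1 to 3.

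Large and small subunit went together. The median difference was 0.112, 0.037 and -0.112 in pairs 1 to 3 for the 47 Mrpl members and 0.099, 0.044 and -0.089 for the 29 Mrps members. Over the 3 pairs the Mrpl median was 0.001 with 24 members above 0, and the Mrps median 0.029 with 19 above 0. Mrpl minus Mrps medians were 0.013, -0.007 and -0.023 in the pairs, each smaller than the interquartile range of either family. In pair 3, 0 of the 18 mitochondria-specific large-subunit proteins were above WT in KO (1 was equal), with a median of -0.149, and 5 of the 30 with a bacterial counterpart were, with a median of -0.109. For the small subunit the medians in pair 3 were -0.089 for the 9 mitochondria-specific proteins and -0.085 for the 16 with a bacterial counterpart.

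The cytosolic ribosomal protein genes did not follow this pattern. Of their 77 rows 76 were tested, and the median difference was 0.144, 0.135 and 0.173 in pairs 1 to 3, positive in each. Over the 3 pairs all 76 had a mean difference above 0, with a median of 0.155, and 43 had an unadjusted limma p under 0.05. Of all genes tested, 51.4% were above 0, 8.82% had an unadjusted limma p under 0.05 and 0.266% passed 5% FDR. Rps28 rose by 0.38 ± 0.12 and Rps29 by 0.33 ± 0.10 (SD, n = 3 pairs; limma adjusted p = 0.00113 and 0.00207), and 5 of the 76 passed 5% FDR. Neither Rps28 nor Rps29 passed without replicate 2, without the variance trend, or once length and GC were corrected for. The mitochondrial median minus the cytosolic one came to -0.037, -0.096 and -0.283 for pairs 1 to 3. In pair 1 the families were thus close, and in pair 3 they lay on opposite sides of 0.

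Transcript length moved with the pair differences over all genes, and within the members it did so alike in pair 1 but not in pair 3. Member transcripts had a median of 1284 bases, those of the cytosolic families one of 887 bases and all genes tested one of 2914 bases. Over the 10073 tested genes with a length, length and the pair difference had Spearman correlations of -0.278, -0.0824 and 0.266 for pairs 1 to 3, as a description across genes that share the same libraries. Within the 76 members they were -0.25, 0.02 and -0.29, so that in pair 3 the sign was opposite to that over all genes, and within the 76 cytosolic genes -0.27, -0.53 and -0.22. With the trend over length and GC content removed from each pair, the member medians were 0.016, 0.029 and -0.044 in pairs 1 to 3, closer to 0 in each. The cytosolic medians became 0.022, 0.115 and 0.236. The summed nuclear and non-coding RNA list also differed between pairs, with log2 ratios of KO over WT of -0.27, -0.97 and 0.35, and its part in the result was not tested.

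**Figure D4:**
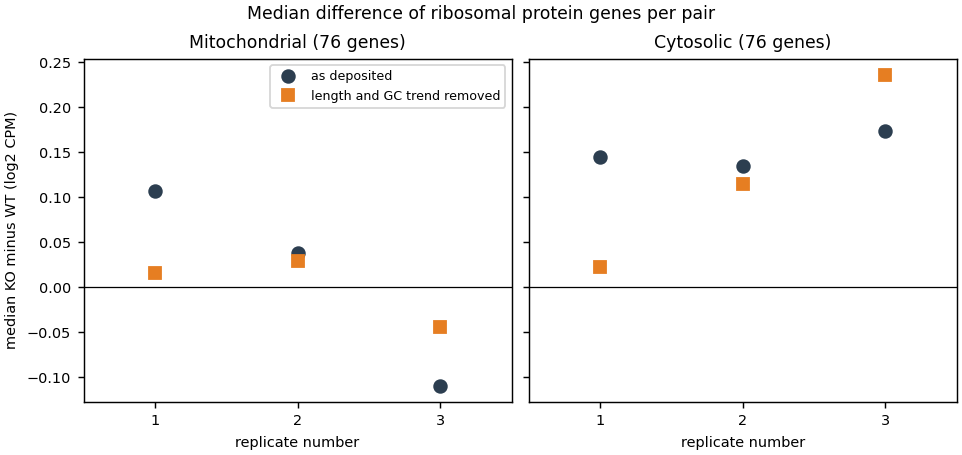
Median difference of KO minus WT in log2 CPM per pair for the mitochondrial (left) and cytosolic (right) ribosomal protein genes, as deposited (dark circles) and after correction for transcript length and GC (orange squares). The mitochondrial medians of pairs 1 and 3 come near 0 after removal, while the cytosolic median of pair 1 becomes smaller and that of pair 3 larger.

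The remaining genes of mitochondrial translation gave no call either. The 7 mitochondrial ribosomal proteins under other symbols had a median difference of 0.036 and the pair medians 0.093, 0.083 and -0.095, much as the members. Gadd45gip1, a protein at the tunnel exit, differed by -0.06 ± 0.07 and Dap3, a GTP-binding protein of the small subunit, by -0.05 ± 0.10. Of 27 assembly factors and rRNA-modifying enzymes 0 passed 5% FDR. Nsun4, the 12S rRNA methyltransferase, was at 4.99, 4.99 and 4.91 log2 CPM in KO and at 4.76, 4.76 and 4.84 in WT (0.18 ± 0.09; limma adjusted p = 0.690), without overlap. Ddx28, a helicase of large-subunit assembly, differed by 0.18 ± 0.18.

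Of 14 translation factors 0 passed 5% FDR. Mtif3, the initiation factor that keeps the subunits apart, was at 4.67, 4.69 and 4.67 log2 CPM in KO and at 4.84, 4.82 and 4.84 in WT (-0.16 ± 0.02; limma adjusted p = 0.759), with similar differences in all pairs. Tufm, the elongation factor that delivers aminoacyl-tRNA, differed by 0.11 ± 0.19. Of 20 genes for mitochondrial aminoacyl-tRNA synthesis 0 passed, and Nars2 and Tars2 differed by 0.20 ± 0.06 and 0.12 ± 0.14. Of 15 genes for mitochondrial transcription and RNA processing 0 passed 5% FDR. Against 8.82% of all genes tested, 1 of the 15 had an unadjusted p under 0.05. That was Fastkd5, an RNA-processing factor, at 5.18, 5.20 and 5.05 log2 CPM in KO and at 4.84, 4.81 and 4.97 in WT (0.27 ± 0.17; limma adjusted p = 0.331). Slirp, which stabilises mitochondrial messenger RNAs together with Lrpprc, differed by 0.17 ± 0.16.

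Of 10 nuclear regulators of mitochondrial genes 9 were tested and 0 passed 5% FDR. An unadjusted p under 0.05 was found for 1 of the 9, Yy1, against 8.82% of all genes tested. Ppargc1a lay below the limit for testing, with a mean of 0.0707 CPM. Yy1, the zinc finger factor named above, was at 4.88, 4.64 and 4.84 log2 CPM in KO and at 4.98, 5.22 and 5.03 in WT (-0.29 ± 0.25; limma adjusted p = 0.311; unadjusted 95% interval -0.50 to -0.08). The groups did not overlap, as for 27.7% of all genes tested, and pair 2 differed most. Pprc1, a coactivator related to PGC-1, differed by 0.15 ± 0.22. The pair pattern of the members was not theirs alone. Pair medians were 0.138, 0.086 and -0.06 for mitochondrial transcription and RNA processing. They were 0.044, 0.029 and -0.022 for aminoacyl-tRNA synthesis and 0.048, 0.018 and -0.015 for assembly and rRNA. Translation factors had 0.036, -0.102 and -0.0, and the regulators -0.027, -0.042 and 0.052. Transcripts encoded by mitochondrial DNA were not analysed here.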

How the data were processed

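Messenger RNA libraries were made from sorted splenic germinal centre B cells, 3 KO and 3 WT. Per the submitters' processing notes, reads were checked with FastQC 0.11.7, the other tools named being limma, STAR 2.6.1a, Subread 2.0.1 with featureCounts, and Trim Galore 0.6.5, on build mm10, with no settings given. The deposited values were read as log2 CPM from their sums. They held the same top value of 13.941 in all libraries and no difference between replicate numbers, so they had been processed further than counting.

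The difference between KO and WT was fitted in R 4.3.3 (limma 3.58.1) with replicate number as a block, a variance trend over level and robust moderation, and Benjamini-Hochberg adjustment over all genes with a geometric mean of at least 1 CPM and more than 1 value. The files carry no pair effect, so whether the numbers pair samples cannot be checked. Without the block, degrees of freedom already spent would count as free. The fit was tested on simulated data. Levels per kb used the longest principal transcript of GENCODE M21 (GRCm38). Members, lists and tests were chosen with earlier results of these data known. Genes were named by smallest p (10 Mrpl and 8 Mrps), by the 3 highest and 3 lowest levels, by a short list of set names, and by the 2 smallest p of each pathway list. P-values rest on the spread of pair differences, most of it taken from other genes of like level. The prior had a median of 81.2 degrees of freedom, against 2 of the gene's own. No spread beyond these libraries is measured.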

Additional observations from a re-analysis of the deposited data

How the results depend on the processing

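No member passed 5% FDR under any of the 11 alternatives fitted. The smallest member adjusted p was 0.127 (Mrpl22), without the replicate block. The number of genes called was 27. It was 142 without the replicate block, 12 with non-robust moderation, 95 with no filter on low values, 4 with the length and GC trend removed, and 11 to 136 without each replicate in turn (11 without replicate 2, 136 without replicate 1, 99 without replicate 3). It was 0 without the variance trend, where 640 genes had an unadjusted p under 0.05. Members with an unadjusted p under 0.05 numbered 16 without the replicate block (23.3% of all genes did), 2 with the length and GC trend removed (9.10% of all genes), and 0 to 8 without each replicate: 2 without replicate 1 (8.70%), 0 without replicate 2 (3.95%) and 8 of 76 without replicate 3 (12% of all genes). The block changed no call of a member.

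The member median of 0.024 ranged from -0.028 to 0.079 without each replicate, positive without replicate 3. Mrpl minus Mrps was -0.027, and -0.009 to 0.011 without each replicate. The cytosolic pair medians were 0.022 in pair 1 and 0.236 in pair 3 with the length and GC trend removed. Counting proteins by the subunit they sit in gave a median of 0.024. The cause of these shifts was not tested. Depth is unknown, which limits what can be said of precision.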
